A study of Mus musculus with 9 samples.

Results

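The 10 circadian clock genes Arntl, Clock, Per1, Per2, Per3, Cry1, Cry2, Nr1d1, Nr1d2 and Dbp were followed across RNA-seq libraries of sorted mouse liver macrophages. They were chosen by symbol, each matched a row of the raw count table, and they are 10 of its 23413 genes. Male C57BL/6 mice were placed on normal diet (ND) or high-fat diet (HFD) at 5 weeks of age for 8 weeks, and from week 3 HFD-fed mice were injected every 5 days with vehicle (Veh) or with DPI at 2 mg/kg. DPI is diphenyleneiodonium, studied as an agonist of the receptor GPR3. There were 2 ND, 3 Veh and 4 DPI libraries, each labelled as a single mouse. No genetic change is named for any group, the Veh and DPI groups share the HFD, and no source used here says that ND mice were injected. The sample labels instead describe purified cells given DMSO or 500 nM DPI for 24 h. Groups were taken from the sample titles, which name diet and treatment. The hour at which livers were taken is not given in the sources used here, so time of day cannot be told apart from any difference between libraries or groups below.

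The molecular clock is a feedback loop of transcription. ARNTL (BMAL1) and CLOCK form a dimer that binds E-boxes and activates the Per, Cry, Nr1d and Dbp genes. PER and CRY proteins then repress that dimer, the REV-ERB receptors NR1D1 and NR1D2 repress Arntl in competition with ROR receptors, and DBP activates genes through D-boxes. In the liver and in macrophages the loop is known to time metabolic and inflammatory genes, and Per1 is also known as an immediate early gene that responds to cyclic AMP and glucocorticoids.

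With HFD and vehicle, 3 of the 10 clock genes, Per1, Nr1d2 and Per3, were higher than with ND at the study's threshold (edgeR's quasi-likelihood test, unadjusted p under 0.05 and a difference of 1 or more on the log2 scale), where 7.03% of the 11393 genes tested were called higher and 11.7% were called in either direction. Per3 and Nr1d2 passed the filter on low counts (2.03 CPM in at least 2 libraries) only through the Veh and DPI libraries, so their calls against ND are no support for the counts of genes called. Per3 had 0 counts in both ND libraries and Nr1d2 had 1 and 12. Per1, which passed in every library, stood 4.54-fold above ND. The fitted 7.48-fold of Nr1d2 is a description, and its log2 fold change ran from 2.03 without ND 1 to 5.54 without ND 2. With DPI against vehicle, 0 of the 10 were called by edgeR, 0 had an unadjusted p under 0.05 and 0 were called by DESeq2, where edgeR called 2.84% of all genes. With DPI against ND, 2 of the 10, Nr1d2 and Per3, were called higher, against 6.24% of all genes called higher, 3.05% called lower and 9.29% called in either direction. After Benjamini-Hochberg adjustment 0 of the 10 passed 0.05 in any of these comparisons by edgeR, where 0.0614% of all genes did for Veh against ND, 0% for DPI against Veh and 0.00878% for DPI against ND. Without ND 1 the count was 0 in both comparisons with ND. The 2 for DPI against ND became 0 without DPI 3 and 1 without Veh 1, Veh 2, DPI 1 or DPI 4, and the 0 for DPI against Veh became 1 (Per1) without DPI 4. The comparisons share libraries, since Veh and ND each enter a pair of them.

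Promoter sequence is given for the genes called with HFD, because the loop acts through short motifs near the start site, and for Ciart, a repressor of the same loop that was called as well and was shown for its motifs. The windows of the other called regulators, Fbxw11 and Rora, held none of the motifs searched. The sequences are the 250 bases before a start site, 5′ to 3′ on the gene's strand, from RefSeq on GRCm38.p6, and capitals mark an E-box (CACGTG) or, in Per3, a D-box (TTANGTAA). Per1 lies at chr11:69098699-69098948 on the plus strand, Ciart at chr3:95882229-95882478, Per3 at chr4:151044666-151044915 and Nr1d2 at chr14:18239107-18239356, the latter 3 on the minus strand.
Per1: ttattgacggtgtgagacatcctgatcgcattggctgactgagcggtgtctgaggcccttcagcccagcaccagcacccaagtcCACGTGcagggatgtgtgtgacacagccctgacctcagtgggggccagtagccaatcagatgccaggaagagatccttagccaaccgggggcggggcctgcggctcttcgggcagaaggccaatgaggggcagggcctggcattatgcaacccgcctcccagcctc
Ciart: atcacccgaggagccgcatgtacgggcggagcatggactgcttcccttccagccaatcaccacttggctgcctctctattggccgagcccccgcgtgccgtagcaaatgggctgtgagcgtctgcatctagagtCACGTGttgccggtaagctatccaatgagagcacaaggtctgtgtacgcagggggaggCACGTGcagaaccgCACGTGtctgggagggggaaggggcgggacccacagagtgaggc
Per3: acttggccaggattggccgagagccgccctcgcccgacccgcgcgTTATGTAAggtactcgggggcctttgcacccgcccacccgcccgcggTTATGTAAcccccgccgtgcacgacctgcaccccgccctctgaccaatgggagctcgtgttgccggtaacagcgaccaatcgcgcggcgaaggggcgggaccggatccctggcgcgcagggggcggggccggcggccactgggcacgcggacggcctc
Nr1d2: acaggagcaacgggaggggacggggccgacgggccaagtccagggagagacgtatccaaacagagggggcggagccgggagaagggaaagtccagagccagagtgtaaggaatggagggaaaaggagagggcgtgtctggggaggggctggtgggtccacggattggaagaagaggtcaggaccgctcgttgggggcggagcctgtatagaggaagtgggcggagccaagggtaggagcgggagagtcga

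In Per1 the E-box began 166 bases before the start site, and the second RefSeq start of Per1 held none. Ciart held 3 E-boxes, and Per3 held 2 D-boxes. Nr1d2 held neither motif. Windows of 250 bases before to 50 bases after each start were searched on both strands for these motifs and for the cyclic AMP element TGACGTCA. RefSeq windows matched 9 of the 10 clock genes (13 windows), Per2 being the exception. The E-box occurred in 2 of the 9 genes, Per1 and Cry1, and in 7.15% of all 32851 windows. Here and below the counts are per gene and the shares per window, and some genes have several windows, so the units differ. The D-box occurred in 1 gene, Per3, and in 2.32% of all windows. The cyclic AMP element occurred in 0 of the 9 genes and in 1.79% of all windows. Of the 23 further clock regulators described later, 17 matched (23 windows), with an E-box in 4 genes, a D-box in 1 and the cyclic AMP element in 1. A match describes the letters in the window, and none says only that these letters are not there.

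Library totals ran from 3534325 counts in DPI 2 to 15585775 in DPI 1, and the ribosomal RNA precursor Rn45s took 27.0% to 44.5% of them. A floor of 3 counts corresponded to 0.184 to 1.02 CPM, which covers counting error only. CPM here is the count scaled by library total and TMM factor. All 10 of 10 general macrophage markers were measured, and their summed level was 19642 to 25525 CPM in ND, 15401 to 25978 in Veh and 21203 to 44578 in DPI. Lyz2 made up most of it, with means of 21039 CPM in ND, 18684 in Veh and 27130 in DPI. For Veh against ND 9 of the 10 were lower and 1 was higher. Emr1 and C1qa were called lower, where 4.63% of all genes were. The 7 Kupffer cell markers summed to 2.73 to 94.4 CPM in ND, 21 to 40.8 in Veh and 14.8 to 65.6 in DPI. Clec4f, which marks Kupffer cells, had 0 counts in 1 of 2 ND and 2 of 3 Veh libraries, and Marco had at most 1 count in any library. The libraries labelled as Kupffer cells are therefore called liver macrophages here. In sorted bulk samples, fewer cells of a type and less RNA per cell cannot be told apart.

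All 10 clock genes passed the filter on low counts, and Per1 was far above the others. Scaled to the length of its exons, Per1 averaged 31.4 CPM per kb over the 9 libraries, with group means of 12.0 in ND, 54.6 in Veh and 23.8 in DPI. Cry1 followed at 2.82 and Nr1d1 at 1.79 CPM per kb. Cry2, Nr1d2, Clock and Per2 lay between 1.05 and 1.37 CPM per kb. Arntl at 0.484, Dbp at 0.465 and Per3 at 0.166 CPM per kb were lowest. This order is of the mean over the 9 libraries and changed between groups. In ND Nr1d2 at 0.224 CPM per kb lay below Arntl at 0.295, and in DPI Nr1d1 at 1.23 lay below Nr1d2 at 1.51 and Cry2 at 1.40. The order is a description, and neighbouring genes were not tested against each other. Per3 was at 0 in 4 of the 9 libraries, Dbp in 2 and Per2 in 1.

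**Figure D1:**
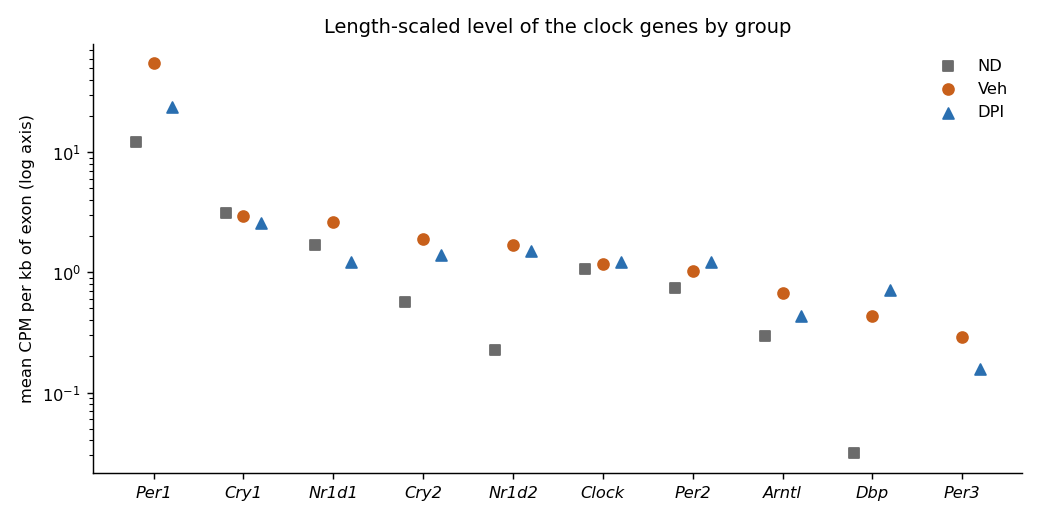
Mean level of each clock gene in ND, Veh and DPI libraries, in CPM per kb of exon on a log axis, ordered by the mean over 9 libraries. Per1 is highest in every group, and Per3 has no ND point because it is at 0 in both ND libraries.

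Neither activator was called, and their differences were within the spread between libraries. Arntl (chr7:113207465-113314126, GRCm38, plus strand) had 1.45 and 2.98 CPM in ND, 5.32, 2.17 and 7.67 in Veh, and 5.94, 3.05, 1.30 and 2.85 in DPI. The groups overlapped, with Veh 2 below ND 2 and DPI 3 below every ND library. Arntl had a log2 fold change of 1.18 (SE 1.15) for Veh against ND and -0.60 (SE 0.92, 95% interval -2.58 to 1.37) for DPI against Veh.

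Clock (chr5:76209868-76304792, minus strand), which encodes the partner of ARNTL, had 22.6 and 6.90 CPM in ND, 24.2, 6.70 and 17.3 in Veh, and 12.6, 12.9, 16.5 and 25.2 in DPI. The groups overlapped, with means of 14.7 ± 11.1 CPM (SD, n = 2) in ND, 16.1 ± 8.80 (SD, n = 3) in Veh and 16.8 ± 5.86 (SD, n = 4) in DPI. Clock differed by 0.12 on the log2 scale for Veh against ND (SE 0.68, 95% interval -1.33 to 1.58), a sign that turned under library size scaling, and by 0.07 for DPI against Veh (SE 0.56, 95% interval -1.14 to 1.28). These intervals leave room for changes of more than 2-fold in either direction.

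Per1 (chr11:69095217-69109960, plus strand), which encodes a repressor of the CLOCK dimer, was higher in Veh than in ND. It had 60.9 and 74.4 CPM in ND, from 335 and 399 counts. In Veh it had 357, 195 and 370 CPM, from 1609, 1077 and 1497 counts. In DPI it had 28.0, 47.5, 114 and 346 CPM, from 457, 140, 618 and 3391 counts. Every Veh library stood above both ND libraries, and 3 of the 4 DPI libraries stood below every Veh library, with DPI 4 inside the Veh range. DPI 1 and DPI 2 also stood below both ND libraries.

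The mean of Per1 was 67.7 ± 9.54 CPM (SD, n = 2) in ND, 307 ± 97.5 (SD, n = 3) in Veh and 134 ± 146 (SD, n = 4) in DPI. For Veh against ND the log2 fold change was 2.18 (SE 0.82, unadjusted p = 0.0194, Benjamini-Hochberg adjusted p = 0.314, edgeR). The two-sided exact permutation test gave p = 0.1, the smallest that 2 against 3 libraries allow. Without ND 1 the edgeR call was lost, at a log2 fold change of 2.05 and an unadjusted p of 0.0687.

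Between DPI and Veh the log2 fold change of Per1 was -1.20 (SE 0.63, 95% interval -2.55 to 0.15), 2.29-fold lower, with an unadjusted p of 0.0781 and an adjusted p of 0.999 by edgeR. The exact permutation test gave p = 0.114 where the smallest possible was 0.0286. Without DPI 4 the log2 fold change was -2.28 (unadjusted p = 4.86e-04, adjusted p = 0.880, edgeR), which passes the threshold of the study, and without DPI 1 it was -0.86. With all 9 libraries Per1 also passed with no filter on low counts (-1.19, unadjusted p = 0.0306) and with at least 10 counts in every library (-1.19, unadjusted p = 0.0460), and in all 4 of 19 alternatives called it. For DPI against ND it was 0.99 (SE 0.75, adjusted p = 0.668, edgeR), and without DPI 4 it was -0.10.

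Markers of other blood cells were also unequal among these libraries. Of 9 neutrophil markers 8 were in the table, and their sum was 804 and 2859 CPM in ND, 2289, 3018 and 3517 in Veh, and 581, 674, 3206 and 4978 in DPI. Of 6 B cell markers 5 were in the table, and their sum was 14.9 and 69.0 CPM in ND, 93.3, 179 and 136 in Veh, and 38.1, 15.6, 117 and 404 in DPI. DPI 1 and DPI 2, which had the lowest Per1, were lowest in the DPI group in both sums, and DPI 4 was highest in both. The neutrophil sum rested mostly on S100a8 and S100a9 (means of 1118 and 1228 CPM in Veh), and its members did not move together. For Veh against ND Mpo was called higher (4.79) and Camp lower (-1.18), and for DPI against Veh Camp (1.06) and Ltf (1.39) were called higher, by edgeR. The T and NK cell markers did not follow this order, summing to 213, 377, 267 and 230 CPM in DPI 1, 2, 3 and 4. Of the neutrophil list S100a8 had counts in all 9 libraries, while Mpo and Elane were at 0 in ND 1. Pax5 of the B cell list was at 0 in ND 1, DPI 1 and DPI 2. The ND 2 neutrophil sum lay inside the Veh range and its B cell sum below it. The part of these cells in the Per1 results was not tested. The 9 hepatocyte markers, by contrast, summed to 301 to 453 CPM in ND, 157 to 197 in Veh and 201 to 341 in DPI, with Apoc3 at 0 in Veh 2 and Veh 3. Their part in the differences from ND, for Per1 or for any clock gene below, was not tested.

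**Figure D2:**
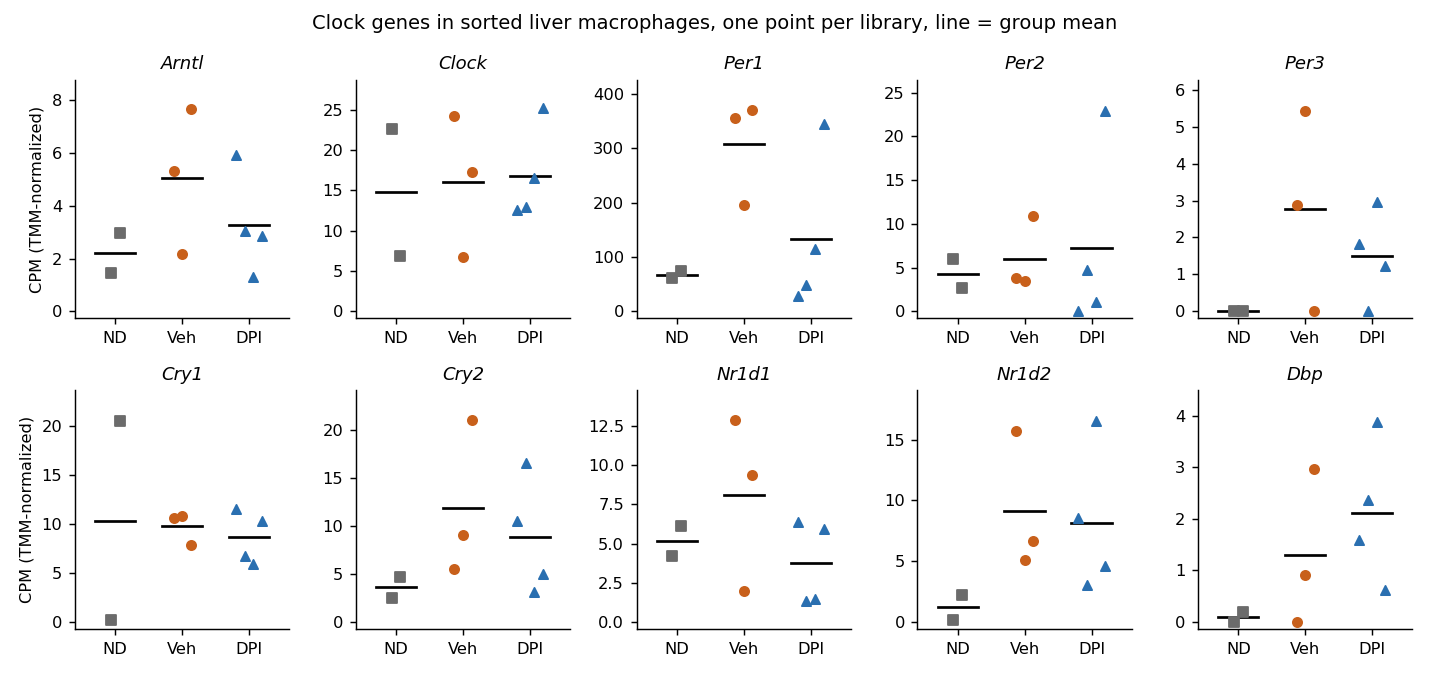
TMM-scaled CPM of the 10 clock genes, 1 point per library in ND, Veh and DPI, with a line at each group mean. Per1 and Nr1d2 have all Veh points above the ND points, and the DPI points of Per1 spread from 28.0 to 346 CPM.

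The other Period genes were scarce. Per2 (chr1:91415982-91459324, minus strand) had 6.0 and 2.61 CPM in ND, 3.77, 3.44 and 10.9 in Veh, and 0, 4.75, 1.11 and 22.9 in DPI. The DPI group held the lowest and the highest library, DPI 1 with 0 counts in the deepest library and DPI 4 with 225 counts. A count of 0 in DPI 1 allows up to 0.184 CPM. Per2 had a log2 fold change of 0.48 (SE 1.57) for Veh against ND and 0.27 (SE 1.30, 95% interval -2.53 to 3.06) for DPI against Veh, and the latter was -1.70 without DPI 4.

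Per3 (chr4:151003652-151044665, minus strand), a Period gene with a minor part in the loop, had 0 counts in both ND libraries. It had 13, 30 and 0 counts in Veh (2.88, 5.43 and 0 CPM) and 30, 0, 16 and 12 counts in DPI (1.84, 0, 2.96 and 1.22 CPM). Libraries at 0 occurred in all 3 groups, so the groups overlapped. Its mean was 5.02 times the ND floor of 3 counts in Veh and 2.73 times in DPI. That floor covers counting error only, so these ratios are no limit on the group difference. For Veh against ND the fitted log2 fold change was 7.21 (95% interval 0.77 to 13.7, unadjusted p = 0.0312, adjusted p = 0.346, edgeR). For DPI against ND it was 6.35 (95% interval 0.12 to 12.6, unadjusted p = 0.0465, adjusted p = 0.460, edgeR). Per3 reached the level of the filter in 0 ND libraries, so these values support no difference. The Veh call was lost without ND 1, ND 2 or Veh 2, and the DPI call was lost in 7 of the 9 fits that left out a library. Between DPI and Veh it differed by -0.86 on the log2 scale (SE 1.56).

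Of the Cryptochrome genes, which encode the partners of PER, neither was called with all libraries and the main filter. Cry1 (chr10:85131700-85185064, minus strand) had 0.182 and 20.5 CPM in ND, 10.6, 10.9 and 7.92 in Veh, and 11.6, 6.78, 5.93 and 10.3 in DPI. All Veh and DPI libraries lay between the ND libraries, which had 1 and 110 counts. Its log2 fold change was -0.08 (SE 1.06) for Veh against ND and -0.17 (SE 0.88, 95% interval -2.08 to 1.73) for DPI against Veh. Without ND 2 the ND group is the library with 1 count, and Cry1 then passed the adjustment for Veh against ND (adjusted p = 0.0261, edgeR) and for DPI against ND (adjusted p = 0.0258, edgeR). In that fit 568 and 572 genes passed it, against 7 and 1 with all libraries.

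Cry2 (chr2:92403646-92434043, minus strand) had 2.55 and 4.66 CPM in ND, 5.54, 9.05 and 21 in Veh, and 10.5, 16.6, 3.15 and 4.99 in DPI. Each Veh library was above both ND libraries, and DPI 3 lay between the ND libraries. The log2 fold change was 1.71 (SE 0.91, unadjusted p = 0.0826, adjusted p = 0.443, edgeR) for Veh against ND and -0.44 (SE 0.71, 95% interval -1.96 to 1.09) for DPI against Veh. Against ND it was called in 2 of 19 alternatives, without Veh 1 (2.10, unadjusted p = 0.0488) and with at least 10 counts in every library (1.72, unadjusted p = 0.0402). Exons of Cry2 share 295 bases with the opposite-strand transcript D930015M05Rik, and whether counting used strand is not stated, so reads there cannot be told apart.

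Of the REV-ERB genes, Nr1d2 was called against ND and Nr1d1 was not. Nr1d2 (chr14:18204054-18239127, minus strand), which encodes REV-ERBβ, had 0.182 and 2.24 CPM in ND, from 1 and 12 counts. It had 15.7, 5.07 and 6.68 CPM in Veh, from 71, 28 and 27 counts, and 8.51, 3.05, 16.5 and 4.59 CPM in DPI, from 139, 9, 89 and 45 counts. Every Veh and every DPI library stood above both ND libraries, and the Veh and DPI libraries overlapped.

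The means of Nr1d2 were 1.21 ± 1.45 CPM (SD, n = 2) in ND, 9.16 ± 5.75 (SD, n = 3) in Veh and 8.16 ± 6.01 (SD, n = 4) in DPI. The log2 fold change was 2.90 (SE 1.16, unadjusted p = 0.0260, adjusted p = 0.333) for Veh against ND and 2.74 (SE 1.13, unadjusted p = 0.0294, adjusted p = 0.427) for DPI against ND by edgeR. With each library left out the first ran from 2.03 (without ND 1) to 5.54 (without ND 2) and the second from 1.87 to 5.38 for the same libraries. Only 1 of the 2 ND libraries reached the level of the filter on low counts, so neither call against ND is support for a difference, and with no filter the unadjusted p was 0.0205 and 0.0231 by edgeR. The exact permutation tests gave 0.1 and 0.0667, each the smallest possible. The Veh call was lost without ND 1 (unadjusted p = 0.104) or Veh 1 (0.0868), and the DPI call without ND 1 (0.122) or DPI 3 (0.0891). Nr1d2 differed by -0.16 on the log2 scale between DPI and Veh (SE 0.84, 95% interval -1.96 to 1.64).

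Nr1d1 (chr11:98767932-98775333, minus strand), which encodes REV-ERBα, had 4.18 and 6.15 CPM in ND, 12.9, 1.99 and 9.40 in Veh, and 6.37, 1.36, 1.48 and 5.91 in DPI. Veh 2 was the lowest of its group and lay below both ND libraries, so the groups overlapped. The log2 fold change was 0.64 (SE 1.04) for Veh against ND and -1.06 (SE 0.85, unadjusted p = 0.233, adjusted p = 0.999, edgeR; 95% interval -2.89 to 0.77) for DPI against Veh. Exons of Nr1d1 share 263 bases with Thra on the opposite strand.

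Dbp (chr7:45705088-45710203, plus strand), the D-box activator and a direct output of the loop, had 0 and 1 counts in ND, 0, 5 and 12 in Veh and 26, 7, 21 and 6 in DPI. Levels were 0 and 0.186 CPM in ND, 0, 0.905 and 2.97 in Veh, and 1.59, 2.37, 3.89 and 0.611 in DPI. Every DPI library stood above both ND libraries, while Veh 1 was at 0. The pooled ratio of DPI to ND was 18.9 (60 against 1 counts, 95% counting interval 3.26 to 758), and that of Veh to ND was 13.1 (17 against 1 counts, 95% counting interval 2.06 to 548). The edgeR test gave an unadjusted p of 0.0791 (adjusted p = 0.516) for DPI and 0.134 (adjusted p = 0.520) for Veh, and the exact permutation test gave 0.0667 for DPI, the smallest possible. Like Per3, Dbp passed the filter on low counts only through the Veh and DPI libraries, so these values against ND support no difference. Exons of Dbp share 539 bases with Sphk2 on the opposite strand.

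Read together by direction, 9 of the 10 clock genes had a positive log2 fold change for Veh against ND, Clock turning negative with library size scaling, with a median of 1.45 beside 0.03 over all genes tested. Between DPI and Veh 7 of 10 were negative, with a median of -0.31 beside 0.04 over all genes, and for DPI against ND 8 of 10 were positive, Clock again turning with that scaling, with a median of 0.87 beside 0.04. Per3 and Dbp enter these medians with fitted values against libraries at or near 0, and without them the medians were 0.91 for Veh against ND, -0.31 for DPI against Veh and 0.66 for DPI against ND. Only 5 of the 10 (Clock, Per1, Per2, Cry2 and Nr1d1) reached the level of the filter in both ND libraries. Over these 5 the median was 0.64 for Veh against ND, with 5 positive, and 0.75 for DPI against ND, with 4 positive. The counts and medians over all 10 are therefore a description and no support for a direction against ND. By libraries alone, 3 of the 10 (Per1, Cry2 and Nr1d2) had every Veh library above every ND library, where 15% of all genes did. Between DPI and Veh 0 of the 10 were free of overlap, against 5.85% of all genes, and 2 of the 10 (Nr1d2 and Dbp) had every DPI library above every ND library, against 11.7% of all genes. Nr1d2 and Dbp did not reach the level of the filter in both ND libraries, so these library counts against ND are also a description and no support.

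**Figure D3:**
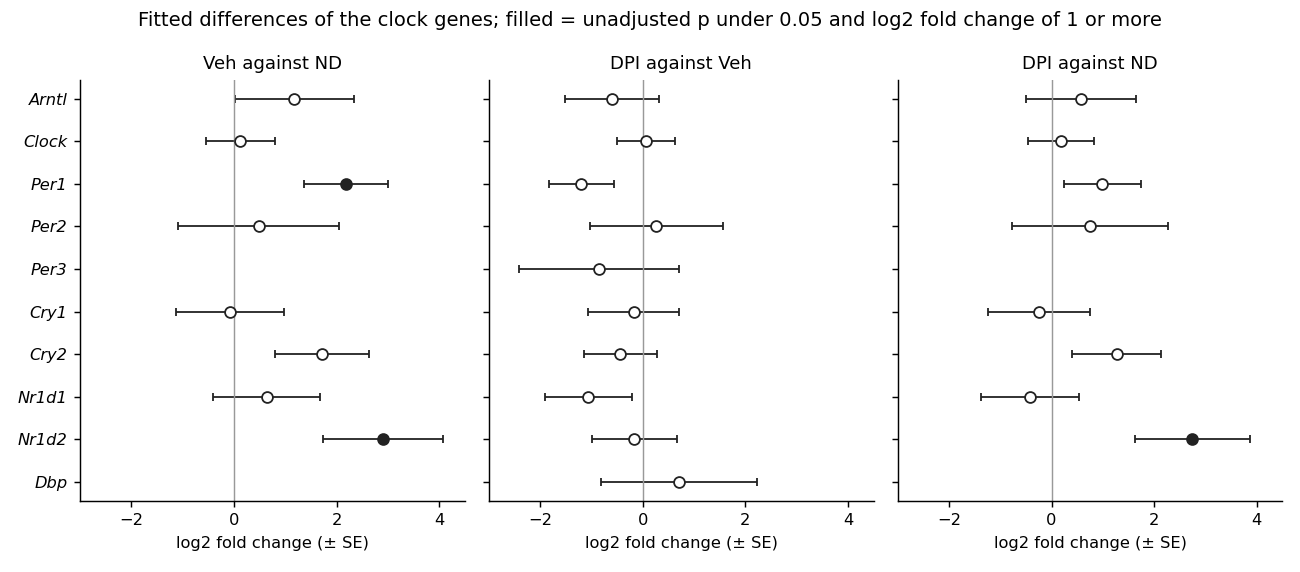
Fitted log2 fold changes of the clock genes with bars of 1 SE from edgeR, in a panel per comparison, where filled points pass the threshold of the study. Per1 and Nr1d2 are filled for Veh against ND and Nr1d2 for DPI against ND, no point is filled for DPI against Veh, and Per3 and Dbp are left out against ND because that group is at 0 or 1 counts.

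Of 23 further genes that act on the clock (other activators, ROR receptors, repressors, D-box factors, kinases, ubiquitin ligases and outputs), 22 were in the table and 16 were tested. Between Veh and ND, 2 were called higher and 1 was called lower, where 7.03% of all genes were called higher and 4.63% lower, with a median of 0.16 over the 16 log2 fold changes. With DPI against Veh 1 was called higher (1.5% of all genes), with a median of -0.16. For DPI against ND 0 were called by edgeR or DESeq2, where edgeR called 9.29% of all genes, 0 had an unadjusted p under 0.05, and the median was -0.08. With each library left out, the regulators called ran from 2 to 6 for Veh against ND (6 without ND 2), from 1 to 2 for DPI against Veh, and from 0 to 7 for DPI against ND (7 without ND 2, and 1 without ND 1 or DPI 1). Without ND 2 the share of all genes called in either direction was itself 21.4% for Veh against ND and 21.3% for DPI against ND.

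Ciart, named Gm129 in the table and encoding a repressor of the CLOCK dimer, had 1.45 and 5.22 CPM in ND, 49.0, 14.5 and 11.9 in Veh, and 3.55, 11.2, 13.5 and 12.1 in DPI. All Veh libraries were above both ND libraries, and the DPI libraries overlapped with both groups. Ciart had a log2 fold change of 2.91 (SE 0.91, unadjusted p = 0.00663, adjusted p = 0.244) for Veh against ND, -1.32 (SE 0.66, unadjusted p = 0.0659) for DPI against Veh and 1.58 (SE 0.83, unadjusted p = 0.0785) for DPI against ND, by edgeR. By DESeq2 the adjusted p for Veh against ND was 0.0355, and over all alternatives it ran from there to 0.473. Ciart reached the level of the filter in 1 of the 2 ND libraries, so its call against ND has the same limit as that of Nr1d2. It passed the threshold for DPI against Veh without ND 1, ND 2 or Veh 3 and in the fit of these 2 groups only, while the value fell to -0.40 (unadjusted p = 0.599, edgeR) without Veh 1 and was -1.03 (unadjusted p = 0.146) without DPI 1. It also passed for DPI against ND without ND 2 or DPI 1. It is the gene whose promoter held 3 E-boxes above.

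Fbxw11, a subunit of a ubiquitin ligase that marks PER proteins for degradation, had 3.82 and 16.4 CPM in ND, 49.2, 21.7 and 31.2 in Veh, and 14.4, 13.9, 19.6 and 23.6 in DPI. Its Veh libraries were above both ND libraries, and DPI 4 was above Veh 2. Fbxw11 had a log2 fold change of 1.75 (SE 0.65, unadjusted p = 0.0179, adjusted p = 0.309, edgeR) for Veh against ND and -0.92 (SE 0.50, unadjusted p = 0.0889) for DPI against Veh. The Veh call was lost without ND 1 (1.06, unadjusted p = 0.115) or Veh 1 (1.43, unadjusted p = 0.0653), and Fbxw11 was called for DPI against ND without ND 2.

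Rora, which encodes an activator of Arntl that competes with the REV-ERBs, went the other way. It had 9.28 and 4.66 CPM in ND, 0.887, 0.181 and 1.24 in Veh, and 2.39, 5.43, 5.93 and 8.56 in DPI, where the Veh values rest on 4, 1 and 5 counts. Every Veh library was below every ND and every DPI library. The log2 fold change was -3.18 (SE 1.09, unadjusted p = 0.0118, adjusted p = 0.284) for Veh against ND and 2.85 (SE 1.00, unadjusted p = 0.0130, adjusted p = 0.999) for DPI against Veh by edgeR, and these share the Veh libraries. Rora reached the level of the filter on low counts in 0 of the 3 Veh libraries and passed it only through ND and DPI, so both calls are no support for a difference. With no filter the unadjusted p was 0.0153 and 0.0166. All 6 of 6 sinusoidal endothelial markers were measured, and their sum was 116 and 176 CPM in ND, 9.97, 9.42 and 6.43 in Veh, and 128, 76.0, 4.26 and 26.7 in DPI, with Clec4g at 0 in Veh 1, Veh 2 and DPI 3. The ND sums were above every Veh sum, while the DPI sums lay on both sides of the Veh range. For Veh against ND 4 of the 6 markers were called lower (4.63% of all genes). Pecam1 went the other way, called higher for Veh against ND (2.66) and for DPI against ND (3.35) by edgeR, and reached the level of the filter in 0 ND libraries. The part of these cells in the Rora results was not tested. Without ND 1 the call against ND was lost, at a log2 fold change of -2.60 and an unadjusted p of 0.0550.

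The remaining regulators with small p were Tef and Nampt for DPI against ND, and neither passed the threshold with all libraries. Tef, a D-box activator like DBP, had 30.0 and 0.186 CPM in ND, 2.90 to 4.45 in Veh and 2.03 to 9.78 in DPI, with a log2 fold change of -1.75 (SE 1.14, unadjusted p = 0.146). Its ND libraries were the highest and the lowest of all, and Tef was called higher without ND 1 (4.45, unadjusted p = 0.0288) and lower without ND 2 (-2.71, unadjusted p = 0.00445), by edgeR. Nampt, a clock output of NAD synthesis, had a log2 fold change of -0.56 (SE 0.37, unadjusted p = 0.151) and was called lower without ND 2 (-1.02, unadjusted p = 0.0194).

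**Figure D4:**
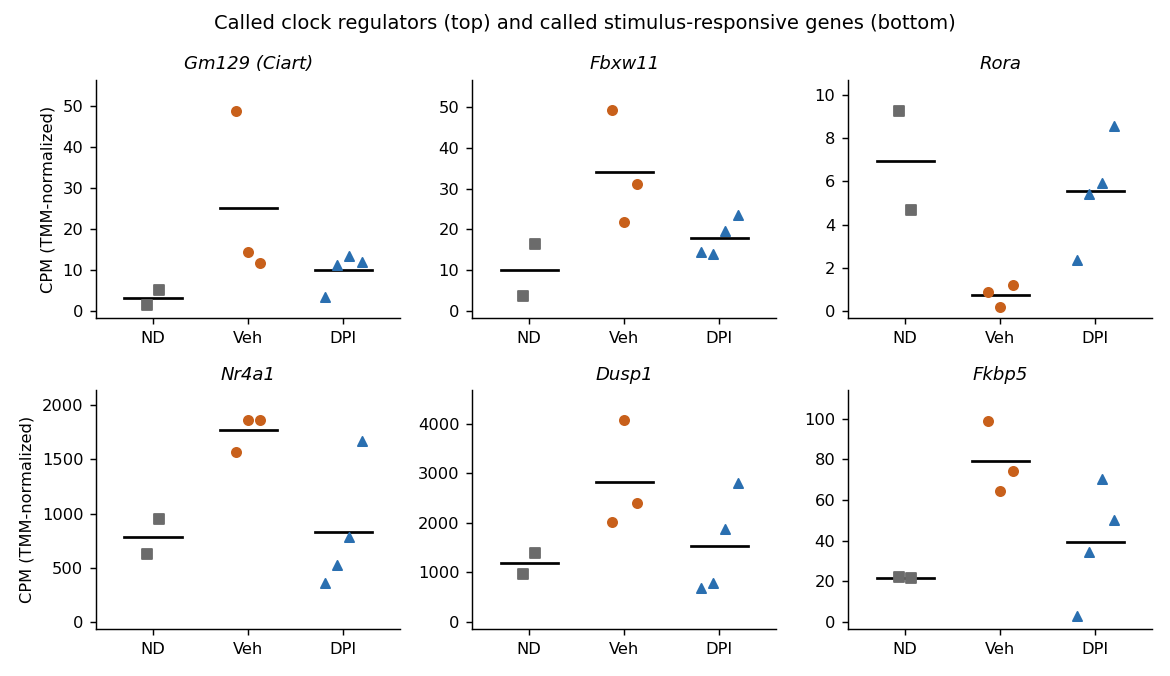
TMM-scaled CPM of the called clock regulators Ciart (Gm129), Fbxw11 and Rora and of the called cyclic AMP or glucocorticoid-responsive genes Nr4a1, Dusp1 and Fkbp5, 1 point per library with a line at each group mean. Rora is lowest in Veh, and the other 5 genes have all Veh points above the ND points.

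Since Per1 answers to cyclic AMP and glucocorticoids, genes known to respond to each were measured beside it. Of 7 cyclic AMP immediate early genes, 7 had a positive log2 fold change for Veh against ND, where 5867 of the 11393 genes tested did. Their median was 0.78 beside 0.03 over all genes, and 2 were called higher, where 7.03% of all genes were. Nr4a1, a nuclear receptor, had 625 and 949 CPM in ND, 1572, 1864 and 1867 in Veh, and 363, 521, 784 and 1666 in DPI. Its log2 fold change was 1.17 (SE 0.50, adjusted p = 0.358, edgeR) for Veh against ND and -1.08 (SE 0.40, unadjusted p = 0.0183, adjusted p = 0.999, edgeR) for DPI against Veh. As for Per1, DPI 1, 2 and 3 lay below every Veh library and DPI 4 lay inside the Veh range. The call of Nr4a1 was lost against ND without ND 1, Veh 2 or Veh 3 and with library size scaling, and against Veh without DPI 1 or DPI 2 and with that scaling.

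Dusp1, a phosphatase of MAP kinases, had 968 and 1398 CPM in ND, 2015, 4073 and 2401 in Veh, and 686, 789, 1865 and 2803 in DPI, with a log2 fold change of 1.26 (SE 0.54, adjusted p = 0.353, edgeR) for Veh against ND. That call was lost without ND 1 or Veh 2 and with library size scaling, and for DPI against Veh the value was -0.88 (SE 0.43, unadjusted p = 0.0591, edgeR). Dusp1 was called lower in that comparison without Veh 1 or DPI 4, and the value was -0.52 (unadjusted p = 0.286) without Veh 2. In the DPI against Veh comparison 7 of the 7 were negative, where 5338 of the 11393 genes tested were, with a median of -0.55 beside 0.04. Of these 1, Nr4a1, was called lower (1.34% of all genes). For DPI against ND 0 were called, where 9.29% of all genes were, with a median of 0.14 beside 0.04.

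Of 7 glucocorticoid-responsive genes 6 were tested. All 6 had a positive log2 fold change for Veh against ND, where 5867 of the 11393 genes tested did. The median was 0.78 beside 0.03 over all genes, and 1 was called higher, where 7.03% of all genes were. Fkbp5, a chaperone partner of the glucocorticoid receptor, had 22.0 and 21.4 CPM in ND, 98.9, 64.7 and 74.5 in Veh, and 3.12, 34.3, 70.6 and 50.4 in DPI, and its log2 fold change was 1.87 (SE 0.82, adjusted p = 0.366, edgeR) for Veh against ND. That call was lost when any ND or Veh library or DPI 4 was left out, and with library size scaling, while Fkbp5 was called higher for DPI against ND without DPI 1. Between DPI and Veh 0 of the 6 were called, where 2.84% of all genes were. In that comparison 5 were negative, where 5338 of the 11393 genes tested were, with a median of -0.38 beside 0.04. For DPI against ND 0 were called, where 9.29% of all genes were, with a median of 0.35 beside 0.04.

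The genes most like Per1 and Clock, the 2 members with the highest mean CPM, were taken by Pearson's r of log2 CPM over the 9 libraries, among 6759 other genes with at least 10 counts in each library. For Per1 they were Cxcr4, a chemokine receptor (r = 0.96, Spearman's rho 0.87), Gpd2, the mitochondrial glycerol-3-phosphate dehydrogenase (r = 0.96, rho 0.88), and Zfp36l1, which encodes an mRNA decay factor (r = 0.96, rho 0.98). Without DPI 1 and Veh 3, the libraries farthest from the median of Per1, r was 0.96, 0.95 and 0.92. For Clock they were Ulk1, an autophagy kinase (r = 0.96, rho 0.92), Rexo1 (r = 0.91, rho 0.88) and Setd1b, a histone methyltransferase (r = 0.90, rho 0.88), and without Veh 2 and ND 2 r was 0.91, 0.85 and 0.85. These values describe libraries that share depth and cell composition, and they carry no test.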

How the data were processed

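RNA was extracted with a Qiagen RNeasy micro kit from F4/80+CD11b+ (in the paper also Gr1low) liver macrophages and sequenced as polyA libraries. The authors aligned reads to mm10 with bowtie2 2.2.3 and RSEM 1.2.15, while the submitters' processing notes also name TopHat2 and edgeR, and they deposited the raw count of each gene as whole numbers, not normalized. Whether counting used strand is not given in the sources used here, and every column belongs to a mapped library.

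Counts were tested in R 4.3.3 with edgeR 4.0.16 (filterByExpr, TMM, glmQLFit, glmQLFTest) in a single fit of 9 libraries and 3 groups, over 11393 genes, and the biological coefficient of variation was 0.65. P-values were adjusted by Benjamini-Hochberg over these genes. As in the study, a call needs an unadjusted p under 0.05 and a difference of 1 or more on the log2 scale. Intervals are 95%, from the SE and the degrees of freedom of the fit. P-values measure the spread between these libraries. Log2 CPM used a prior count of 2. Two-sided exact permutation tests compared mean log2 CPM. Positions and exon lengths came from GENCODE M21 and promoters from RefSeq. Figures were drawn in Python 3.11.15 with matplotlib 3.10.9. The test was checked on simulated counts.

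The members, gene lists and tests were chosen with earlier results of these data known. All members were named, together with regulators called in any comparison or among the 3 smallest p of a comparison, called genes of the cyclic AMP and glucocorticoid lists, and the 3 genes most like Per1 and Clock. Lists were described by counts and medians. Alternatives used were scaling by RLE or library size, no filter or at least 10 counts in each library, DESeq2 1.42.0, edgeR's likelihood ratio test, fits of 2 groups, the replicate number as a block, counts without Rn45s, thinning to the smallest library, a prior count of 0.5 and each library left out in turn. Marker lists covered macrophages, Kupffer cells, hepatocytes, neutrophils, T and NK cells, B cells and sinusoidal endothelium.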

Additional observations from a re-analysis of the deposited data

How the results depend on the processing

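The clock genes rest on few counts and 2 ND libraries, and these limit every comparison with ND. The number called for Veh against ND was 3 and ran from 0 (without ND 1) to 3 with each library left out. It was 2 with at least 10 counts in every library (Per1 and Cry2, where only 3 of the 10 could be tested), with the fit of 2 groups only (Per1 and Per3) and with thinning (Per1 and Nr1d2). For DPI against Veh it was 0, became 1 (Per1) with no filter on low counts or with at least 10 counts in every library, and ran from 0 to 1 with each library left out, reaching 1 without DPI 4. For DPI against ND it was 2, became 1 with library size scaling or thinning and 0 with at least 10 counts in every library, which removes the low genes, or with the fit of 2 groups only, and ran from 0 (without ND 1 or DPI 3) to 2. DESeq2 and the likelihood ratio test each gave 3 for that comparison, adding Dbp. Where ND was left with 1 library, it was assumed to vary like the other groups.

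The replicate number was also fitted as a block. Over all genes tested, deviations from the group mean had r from -0.02 to 0.08 over 7 pairs of same-numbered libraries (0 of them over 0.1). The other pairs ran from -0.08 to 0.06. With 2 ND libraries these deviations mirror each other, so the pairs are not independent, and whether the numbers mark a shared batch was not tested. The block gave 1, 1 and 0 clock genes called for Veh against ND, DPI against Veh and DPI against ND, with Per1 the gene in each of the first 2 (-2.48 and an unadjusted p of 8.52e-05 by edgeR for DPI against Veh). It also lost Fkbp5 for Veh against ND (1.63, unadjusted p = 0.0840) and called Dusp1 lower for DPI against Veh (-1.44, unadjusted p = 0.00129), by edgeR. It turned the sign of Per2 (-0.15), Cry1 (0.69) for Veh against ND, Per2 (-2.07) for DPI against Veh, and Per1 (-0.64), Per2 (-2.22) and Cry1 (0.51) for DPI against ND.

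Scaling by library size turned Clock to -0.20 for Veh against ND and -0.022 for DPI against ND. It moved the median of all genes to -0.26, 0.12 and -0.17 for Veh against ND, DPI against Veh and DPI against ND, and the calls over all genes from 801 higher and 528 lower to 539 and 932, from 171 and 153 to 196 and 101, and from 711 and 347 to 546 and 624. Thinning turned Clock (-0.077) and Per2 (-0.036) for DPI against Veh. DESeq2 gave 312, 2 and 219 adjusted calls over all genes where edgeR gave 7, 0 and 1. Over the members' values, 248 of these alternatives kept direction and side of the threshold, 10 reversed, 6 gained and 7 lost a call. With each library left out 231 did, 19 reversed, 2 gained and 15 lost a call.

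With each library left out, values that changed sign ranged, for Veh against ND, from -0.47 to 1.22 for Clock, -0.21 to 1.2 for Per2 and -1.05 to 5.64 for Cry1. For DPI against Veh they ranged from -0.30 to 0.49 for Clock, -1.70 to 0.99 for Per2, -1.45 to 0.078 for Per3, -0.92 to 0.25 for Cry2 and -0.75 to 0.47 for Nr1d2. For DPI against ND they ranged from -0.39 to 1.29 for Clock, -0.10 to 1.33 for Per1, -1.22 to 1.47 for Per2 and -1.22 to 5.47 for Cry1. Per1 for Veh against ND was called in 18 of 19 alternatives (log2 fold change 1.84 to 2.43, adjusted p 0.132 to 0.514, edgeR and DESeq2), Nr1d2 in 14 of 18 and Per3 in 13 of 17.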

Other observations

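Marker lists of the other cell types a sorted liver sample could hold also differed between groups, and they are given as values. Over all genes 7.03% were called higher and 4.63% lower for Veh against ND, 1.5% and 1.34% for DPI against Veh, and 6.24% and 3.05% for DPI against ND. Of the 9 hepatocyte markers tested, 3 were called lower for Veh against ND (median log2 fold change -2.43), 0 were called for DPI against Veh (median 0.69) and 3 were called lower for DPI against ND (median -1.66). The T and NK cell markers summed to 60.4 to 280 CPM in ND, 166 to 335 in Veh and 213 to 377 in DPI, with 1 of 8 called higher for Veh against ND, 0 for DPI against Veh and 2 called higher for DPI against ND. Of the 5 B cell markers tested 1 was called higher in each comparison with ND and 0 for DPI against Veh. Of the 8 neutrophil markers tested 1 was called higher and 1 lower for Veh against ND, 2 higher for DPI against Veh and 1 higher for DPI against ND.

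Of the 6 sinusoidal endothelial markers 4 were called lower and 1 higher for Veh against ND, 3 higher for DPI against Veh and 1 higher for DPI against ND. Of the 10 macrophage markers 2 were called lower for Veh against ND, 2 higher for DPI against Veh and 0 for DPI against ND. Of the 7 Kupffer cell markers 3 were tested, and 0 were called in any comparison. No marker of these lists had an adjusted p under 0.05 in any comparison by edgeR.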
